A study of Homo sapiens with 36 samples.

Results

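The genes described here encode 10 proteins of translesion synthesis and DNA damage tolerance: the polymerases POLH, POLI, POLK, POLQ and POLN, the polymerase and scaffold REV1, the polymerase zeta subunits REV3L and MAD2L2, and the ubiquitin ligases RAD18 and HLTF. They were taken by name, and all 10 were found among the 57820 genes of an RNA-seq count table. The table covers 36 libraries of A2780, a human ovarian cancer cell line, in 12 conditions of 3 libraries each. Sensitive parental cells (wt) were compared with the platinum-resistant line made from them by chronic cisplatin exposure (cis), and with cells that grew out of cis cells in medium lacking serine and glycine and that had regained serine synthesis (cis SSP). Each line was kept in complete medium or in medium that lacked serine and glycine (-SG), and each without drug or with carboplatin (carbo), whose dose the labels print as 6 M, where a unit prefix appears to have been lost, so the dose is not interpreted here. Since the study's figure legends describe the 3 libraries per condition as technical replicates, errors and p-values measure the spread between those libraries and do not cover separate cultures. Each line is 1 culture history, and a difference between lines cannot be told apart from a difference between those histories.

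When a replication fork meets a platinum adduct or another lesion, RAD18 attaches ubiquitin to the sliding clamp PCNA, and this mark recruits Y-family polymerases that can insert a base opposite the damage. Polymerase eta, encoded by POLH, passes platinum crosslinks between neighbouring guanines, REV1 brings the other polymerases together, and polymerase zeta, built from REV3L with its accessory subunit MAD2L2, extends the new end. HLTF lengthens the ubiquitin chain on PCNA and can reverse stalled forks, which favours error-free tolerance over lesion bypass.

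Total counts on genes were 13074937 to 20441582 per library. Library 25 (the first of cis SSP) and library 32 (the second of cis SSP -SG) stood apart from the others of their conditions, and fold changes that rest on them are given with all libraries and, where a call was made without them, without them. The mean chi-square of counts between libraries of 1 condition was 1.20 to 123 over 36 pairs, and at most 13.5 without libraries 11, 25 and 32. As a check of the labelled line, the mesenchymal marker VIM had condition means of 1579 to 4208 CPM (counts of a gene scaled to its library's total after TMM adjustment). The mesenchymal marker CDH2 ranged from 10.15 to 1255 CPM. The fibroblast markers COL1A1 and DCN were not low in every condition, at 1.88 to 954 CPM and 0.226 to 24.7 CPM. The epithelial and ovarian markers KRT8, EPCAM, CDH1, PAX8, WT1 and MUC16 had condition means of at most 6.17 CPM, and the epithelial keratin KRT18 ranged from 0.428 to 41.5 CPM. The leukocyte marker PTPRC had at most 1 count in any library, and the endothelial marker VWF at most 5 counts.

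Levels between genes were compared per kb of merged exons, as TMM-scaled CPM divided by exon length. HLTF (chr3:148747914-148804341, GRCh37, minus strand) was the most abundant of the 10, with a median level of 36.02 CPM per kb over the 12 conditions. MAD2L2 (chr1:11718975-11751868, minus) followed with 8.21 and RAD18 (chr3:8817088-9005457, minus) with 6.76 CPM per kb. POLH (chr6:43543922-43588260, plus) had 6.44 and REV1 (chr2:100016938-100106497, minus) 6.38 CPM per kb, an order that turned when the longest transcript gave the length or when libraries 25 and 32 were left out. With the longest transcript REV1 also passed RAD18, and POLI passed POLQ and REV3L. POLQ (chr3:121150278-121264835, minus), which joins broken ends by theta-mediated end joining, had a level of 4.68 CPM per kb. REV3L (chr6:111620231-111804918, minus) had 4.30 and POLI (chr18:51795887-51847636, plus) 3.17 CPM per kb. POLK (chr5:74807670-74905816, plus), which copies past bulky adducts in the minor groove, had 1.52 CPM per kb. POLN (chr4:2073645-2243848, minus), an A-family polymerase, was lowest with 0.157 CPM per kb and only 10 to 57 counts per library. The exons of POLN share 3691 bases (47.8%) on the same strand with the protein-coding gene ENSG00000290263, which is not among the counted genes. They share 686 bases with HAUS3, which had 1748% of the counts of POLN, so the level of POLN is uncertain. Exons of POLH, POLI, POLK, REV1, REV3L, MAD2L2 and HLTF overlap exons of a gene on the opposite strand, by up to 27.4% of the exon bases for HLTF with GYG1, and the strand setting of the counting was not given in the sources used here. The gene opposite POLI is not among the counted genes.

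**Figure D1:**
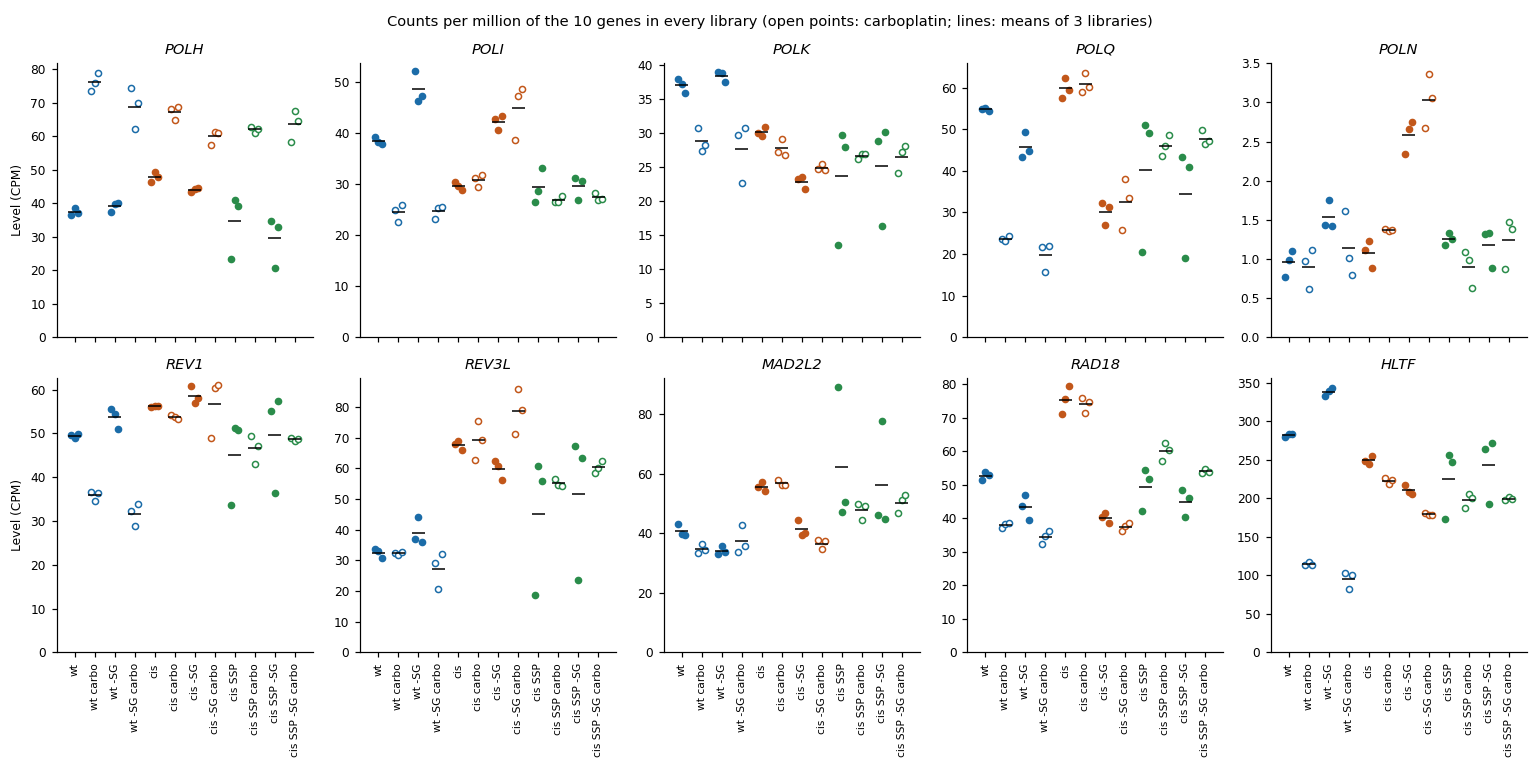
Level of each gene (y axis, TMM-scaled CPM) in each of the 36 libraries by condition (x axis, blue wt, orange cis, green cis SSP, open points carboplatin), with lines at the means of 3 libraries. The HLTF mean is 282 CPM in wt and 115 CPM in wt carbo, and 1 library each of cis SSP and cis SSP -SG lies apart, low for REV3L and high for MAD2L2.

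The first comparison asks how sensitive cells answer carboplatin in complete medium. POLH was higher with the drug and 7 other members were lower, with the largest falls in HLTF and POLQ. POLH was at 36.6, 38.5 and 37.2 CPM in the wt libraries and at 73.6, 75.8 and 78.9 CPM in the wt carbo libraries. Every treated library lay above every untreated one, and the log2 fold change was 1.03 (SE 0.042, adjusted p = 5.91e-100, quasi-likelihood test of edgeR, Benjamini-Hochberg adjusted over all tested genes). POLH is a known target gene of p53.

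Both ubiquitin ligases were lower in wt carbo cells. HLTF went from 279.9, 284 and 283 CPM to 114, 117 and 114 CPM, a 2.44-fold lower level (log2 fold change -1.29, SE 0.025, adjusted p = 3.14e-256). RAD18 was at 51.6, 53.8 and 52.9 CPM without and at 37.1, 38.3 and 38.6 CPM with carboplatin (log2 fold change -0.47, SE 0.045, adjusted p = 4.84e-23). Treated and untreated libraries did not overlap for either gene.

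Among the polymerases, POLQ had 54.8, 55.1 and 54.5 CPM in wt and 23.6, 23.2 and 24.3 CPM in wt carbo, a 2.30-fold lower level (log2 fold change -1.20, SE 0.050, adjusted p = 4.88e-96). POLI, a Y-family polymerase that inserts bases opposite lesions, had 39.2, 38.2 and 37.9 CPM in wt and 24.9, 22.5 and 26.02 CPM in wt carbo (log2 fold change -0.64, SE 0.054, adjusted p = 1.63e-29). The groups did not overlap for POLQ or POLI. REV1 fell from 49.5 ± 0.521 (SD, n = 3) to 35.9 ± 1.19 CPM (log2 fold change -0.45). POLK fell from 36.97 ± 1.10 to 28.7 ± 1.77 CPM (log2 fold change -0.35).

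The subunits of polymerase zeta had separate outcomes. MAD2L2 went from 42.99, 39.8 and 39.5 CPM to 33.5, 36.5 and 34.6 CPM (log2 fold change -0.22, SE 0.049, adjusted p = 1.20e-05). REV3L, the catalytic subunit, was at 33.7, 33.1 and 30.9 CPM in wt and 32.3, 31.8 and 32.9 CPM in wt carbo, with overlapping groups and an adjusted p of 0.963. POLN did not pass the test either, at 0.776 to 1.10 CPM and 0.610 to 1.11 CPM. In all, 8 of the 10 genes were called, where 77.8% (38.9% as higher and 39% as lower) of all tested genes were called, so the share among the 10 was close to that of all genes. Genes of cycling cells moved as well: the summed level of 12 cell cycle markers was 3103 to 3167 CPM in wt and 1200 to 1222 CPM in wt carbo, and their part in the lower levels was not tested. In such bulk libraries, fewer cells of a kind and less RNA per cell cannot be told apart. The 14 listed p53 target genes summed to 1252 to 1258 CPM in wt and 4254 to 4332 CPM in wt carbo, and their part in the level of POLH was not tested.

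Without serine and glycine, carboplatin again gave wt cells 1 higher and 7 lower members, where 68.9% (34.3% as higher and 34.6% as lower) of all genes were called. POLH was at 37.4, 39.9 and 39.98 CPM in wt -SG and at 74.3, 62.04 and 69.9 CPM in wt -SG carbo (log2 fold change 0.82, SE 0.078, adjusted p = 1.09e-05). HLTF had 333, 339.5 and 343 CPM in wt -SG and 103, 82.5 and 100.2 CPM in wt -SG carbo, a 3.54-fold lower level (log2 fold change -1.82, SE 0.087, adjusted p = 1.10e-07). The groups did not overlap for either gene, and library 11, the second of wt -SG carbo, was the lowest of its condition for both. The lower calls also covered POLQ (log2 fold change -1.21), POLI (-0.97), REV1 (-0.76), REV3L (-0.51), POLK (-0.47) and RAD18 (-0.32). REV3L was not called without the second wt -SG library, where its log2 fold change was -0.42. MAD2L2 was not called, with 32.9 to 35.9 CPM in wt -SG and 33.6 to 42.6 CPM in wt -SG carbo.

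The carboplatin response of wt cells differed between the media for 4 of the 10 genes by the interaction term, where 27.7% (14.6% as higher and 13.1% as lower) of all genes were called. HLTF fell further without serine and glycine (difference of log2 fold changes -0.54, SE 0.087, adjusted p = 2.36e-04), as did POLI (-0.34) and REV1 (-0.31). MAD2L2, which fell with the drug only in complete medium by these tests, had a difference of 0.35, SE 0.103, adjusted p = 0.0180. The call on POLI was lost without the third wt carbo library (-0.29), and that on MAD2L2 without the first library of wt (0.31) or of wt carbo (0.32).

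In resistant cells fewer members and a smaller share of all genes were called with carboplatin. The lower count is not read as a result about the members. In complete medium 2 of the 10 genes were called between cis carbo and cis, where 20.1% (9.27% as higher and 10.8% as lower) of all genes were called. POLH was at 46.3, 49.3 and 47.97 CPM in cis and at 68.1, 64.7 and 68.8 CPM in cis carbo, again with no overlap (log2 fold change 0.50, SE 0.044, adjusted p = 1.16e-09). HLTF went from 249, 244 and 255 CPM to 227, 219 and 224 CPM, a 1.11-fold lower level (log2 fold change -0.15, SE 0.028, adjusted p = 2.92e-04). The other 8 did not pass the test, among them POLQ with 57.6 to 62.4 CPM in cis and 59.02 to 63.5 CPM in cis carbo, and RAD18 with 71.03 to 79.4 and 71.4 to 75.9 CPM. The cell cycle markers summed to 3397 to 3474 CPM in cis and 3078 to 3161 CPM in cis carbo, and the p53 targets to 1251 to 1282 CPM and 1943 to 1984 CPM.

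Without serine and glycine 3 members were called between cis -SG carbo and cis -SG, where 22.5% (10.9% as higher and 11.6% as lower) of all genes were called. POLH had 43.3, 44.2 and 44.7 CPM without and 57.4, 61.3 and 61.05 CPM with carboplatin (log2 fold change 0.45, SE 0.045, adjusted p = 2.23e-05). REV3L had 62.4, 60.9 and 56.1 CPM in cis -SG and 71.1, 86.01 and 78.95 CPM in cis -SG carbo (log2 fold change 0.40, SE 0.070, adjusted p = 0.00312). HLTF was lower in all 3 treated libraries, at 179 to 181 CPM against 206 to 218 CPM (log2 fold change -0.22, SE 0.032, adjusted p = 3.12e-04). The second and the third library of cis -SG carbo, where REV3L was higher than in the first, had 17.9% and 14.9% of reads assigned to no gene, against at most 9.31% in the other libraries, and the part of this in the result was not tested. Without the first cis -SG carbo library 6 members were called in place of 3. The share of all genes called in that fit is not given here, so this count is not read as a result about the members. Between the media, the carboplatin response of cis cells differed by the interaction term for POLK (0.25, SE 0.083, adjusted p = 0.0449) and REV3L (0.37, SE 0.105, adjusted p = 0.0373), where 12.1% (5.91% as higher and 6.17% as lower) of all genes were called. The call on POLK was lost without any 1 of the 12 libraries (0.17 to 0.26). That on REV3L was lost without any 1 of 7 libraries, the 3 of cis, the second or the third of cis -SG, and the third of cis carbo or cis -SG carbo (0.27 to 0.39 over all 12 left-out libraries).

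The carboplatin responses of cis and wt cells were compared directly by the interaction term. In complete medium 8 of the 10 genes differed, where 57.6% (30.3% as higher and 27.2% as lower) of all genes were called. The rise of POLH was smaller in cis than in wt cells (difference of log2 fold changes, cis minus wt, -0.52, SE 0.061, adjusted p = 5.66e-11). The 7 other called genes fell in wt cells and had positive differences, led by POLQ at 1.24, SE 0.066, adjusted p = 1.96e-24 and HLTF at 1.15, SE 0.037, adjusted p = 8.68e-35. The others were POLI at 0.72, RAD18 at 0.46, REV1 at 0.41, MAD2L2 at 0.27 and POLK at 0.24. The call on POLK was lost without the second wt carbo library (0.19).

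Without serine and glycine 8 genes again differed between the lines in their carboplatin response, where 55.4% (27.6% as higher and 27.8% as lower) of all genes were called. HLTF had a difference of 1.58, SE 0.095, adjusted p = 1.58e-10. POLQ differed by 1.29 (SE 0.196) and POLI by 1.04 (SE 0.108). REV3L, which fell in wt -SG carbo and rose in cis -SG carbo, differed here by 0.89, SE 0.189, adjusted p = 0.00174. REV1 (0.69) and POLK (0.58) had positive and POLH (-0.39) and MAD2L2 (-0.32) negative differences. The call on MAD2L2 was lost without any 1 of 6 libraries, the first or the third of wt -SG, the second of wt -SG carbo, the first of cis -SG, and the second or the third of cis -SG carbo (-0.38 to -0.20 over all 12 left-out libraries).

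**Figure D2:**
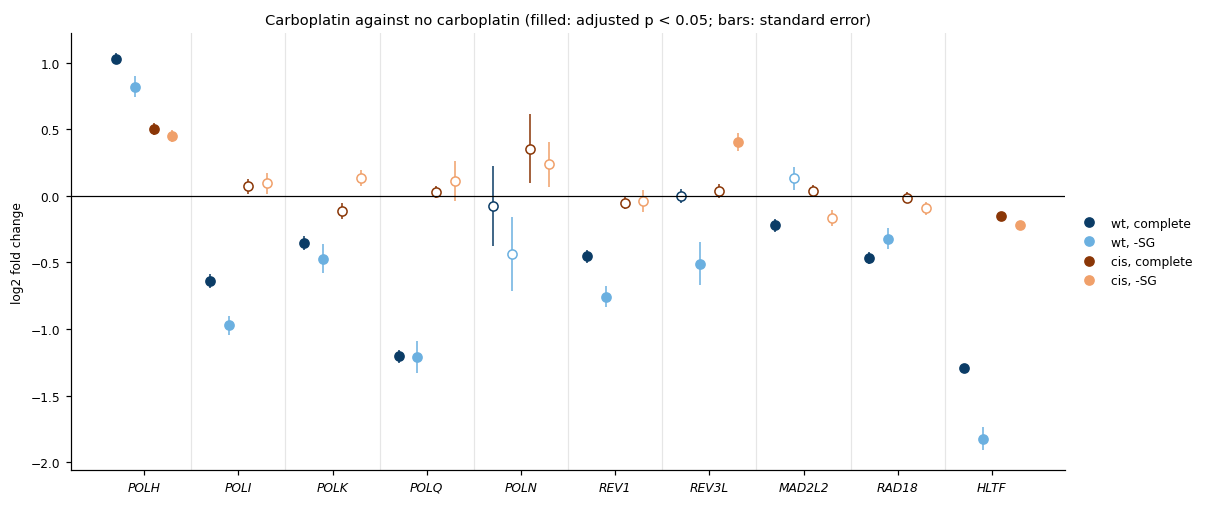
Log2 fold change of each gene with carboplatin (y axis) in wt and cis cells in complete or -SG medium, with bars for the standard error and filled points at an adjusted p under 0.05. POLH lies above 0 in all 4 comparisons, at 1.03 and 0.82 in wt cells and 0.50 and 0.45 in cis cells, and POLQ lies at -1.20 and -1.21 in wt cells.

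The windows of 250 bases before the RefSeq start are shown for the genes with the largest carboplatin responses in wt cells, POLH in one direction and POLQ and HLTF in the other. The sequences are from RefSeq (GRCh38.p14), and each matched GRCh37 at 1 place, chr6:43543672-43543921 (plus strand) for POLH, chr3:121264836-121265085 (minus) for POLQ and chr3:148804321-148804570 (minus) for HLTF. Capitals mark matches, on either strand, to CCAAT, to TTTGAA (letters of the cell cycle homology region) and to the E2F letters TTGGCGC or TTCCCGC.
POLH: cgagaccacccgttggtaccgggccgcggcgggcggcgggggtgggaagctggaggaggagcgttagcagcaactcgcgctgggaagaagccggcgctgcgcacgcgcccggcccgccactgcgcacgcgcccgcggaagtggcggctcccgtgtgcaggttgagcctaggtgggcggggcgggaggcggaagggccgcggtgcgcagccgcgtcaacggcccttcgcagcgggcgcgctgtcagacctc
POLQ: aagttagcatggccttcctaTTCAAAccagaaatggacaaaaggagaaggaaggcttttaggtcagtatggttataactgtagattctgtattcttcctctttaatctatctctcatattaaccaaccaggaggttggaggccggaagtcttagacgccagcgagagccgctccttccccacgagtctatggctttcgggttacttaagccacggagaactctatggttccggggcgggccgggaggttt
HLTF: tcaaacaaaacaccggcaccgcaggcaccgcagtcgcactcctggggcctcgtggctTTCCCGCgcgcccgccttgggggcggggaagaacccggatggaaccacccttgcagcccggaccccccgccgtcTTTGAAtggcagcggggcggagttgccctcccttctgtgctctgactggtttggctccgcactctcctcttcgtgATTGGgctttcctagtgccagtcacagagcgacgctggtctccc
HLTF held 1 match to each of the 3 motifs, at 44 bases (CCAAT), 119 bases (TTTGAA) and 193 bases (E2F) before the start. POLQ held 1 match to TTTGAA, 230 bases before the start, and POLH had no match to these letters. Of 34788 promoter windows of the same length, 32% held CCAAT, 13.3% TTTGAA and 7.81% the E2F letters. The p53 half-site consensus had no match in the windows of the 10 genes, and 5.59% of all windows had one. A match describes letters in the window and not a site, and these windows do not cover the rest of a gene.

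Carboplatin in cis SSP cells was read with and without library 25 or 32. In complete medium POLH was at 23.5, 41.1 and 39.2 CPM in cis SSP, the first value being library 25, and at 62.8, 61.04 and 62.2 CPM in cis SSP carbo. All treated libraries lay above all untreated ones, but the log2 fold change of 0.87 (SE 0.223) had an adjusted p of 0.122 with edgeR. With edgeR 0 members were called, where 2.72% (1.97% as higher and 0.749% as lower) of all genes were called, while 1 member, POLH, had an unadjusted p under 0.05 and DESeq2 called 1. Without library 25, where 41.2% of all genes were called, 4 members were called: POLH (log2 fold change 0.65, SE 0.049, adjusted p = 2.38e-11), HLTF (-0.33, SE 0.032, against -0.16 with all libraries), RAD18 (0.20 against 0.31) and POLI (-0.18 against -0.098).

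In cis SSP -SG cells POLH was at 34.7, 20.7 and 32.99 CPM without, the second value being library 32, and 58.4, 67.7 and 64.7 CPM with carboplatin (log2 fold change 1.12, SE 0.210, adjusted p = 0.0710). With edgeR 0 members were called, where 1.47% (1.17% as higher and 0.295% as lower) of all genes were called, while 2 had an unadjusted p under 0.05 and DESeq2 called 1. Without library 32, where 41.1% of all genes were called, 6 members were called: POLH (0.93, SE 0.061, adjusted p = 3.42e-10), HLTF (-0.40, SE 0.030, against -0.27 with all libraries), RAD18 (0.21 against 0.28), POLQ (0.20 against 0.48), REV1 (-0.19 against -0.016) and MAD2L2 (0.17 against -0.14, the opposite sign). The subunits of polymerase zeta showed how these libraries stood apart. REV3L was at 18.8, 60.8 and 55.99 CPM in cis SSP and 67.4, 23.8 and 63.5 CPM in cis SSP -SG, lowest in libraries 25 and 32. MAD2L2 was at 89.3, 47.1 and 50.5 CPM and 46.04, 77.8 and 44.8 CPM, highest in the same libraries. Between cis SSP and cis cells, the carboplatin response differed for 0 members with edgeR, where 0.506% (0.423% as higher and 0.0832% as lower) of all genes were called, 2 members had an unadjusted p under 0.05 and DESeq2 called 0. Without library 25, where 14.3% of all genes were called, it differed for RAD18 (0.22 against 0.33 with all libraries), POLI (-0.25 against -0.16) and HLTF (-0.17 against -0.011).

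**Figure D3:**
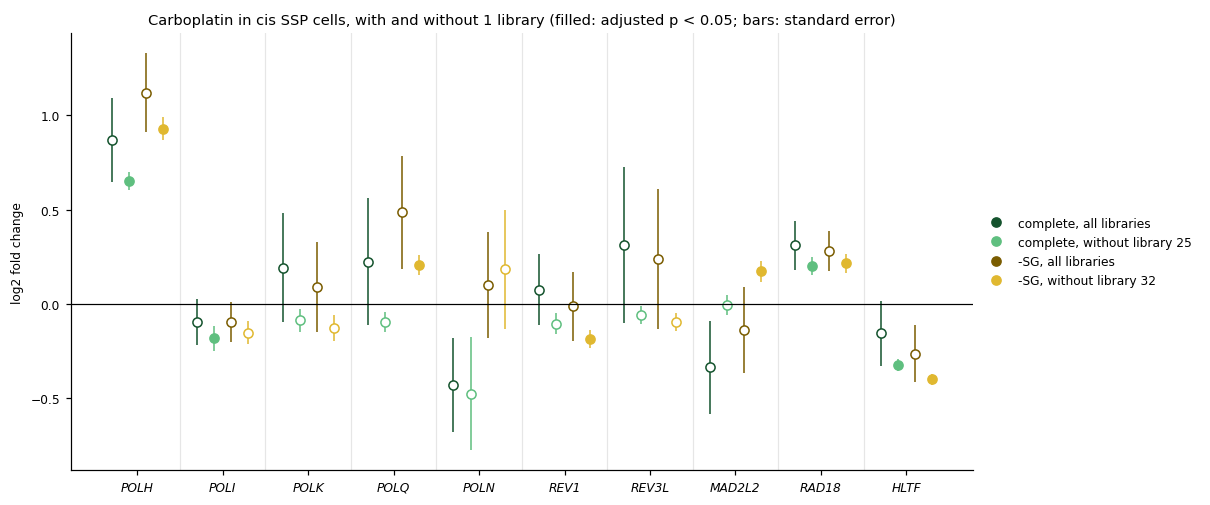
Log2 fold change with carboplatin (y axis) in cis SSP cells in each medium, with all libraries and without library 25 or 32, with bars for the standard error and filled points at an adjusted p under 0.05. With all libraries no point is filled, and without the 1 library POLH stands at 0.65 and 0.93.

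The next comparison sets resistant against sensitive cells. In complete medium without drug 9 of the 10 genes were called between cis and wt cells, 6 as higher and 3 as lower in cis, where 78.5% (39.4% as higher and 39.1% as lower) of all genes were called. REV3L had the widest gap, with 33.7, 33.1 and 30.9 CPM in wt and 68.1, 68.9 and 66.001 CPM in cis, a 2.05-fold higher level (log2 fold change 1.04, SE 0.046, adjusted p = 2.18e-24). Its partner MAD2L2 was at 42.99, 39.8 and 39.5 CPM in wt and 55.5, 57.3 and 54.4 CPM in cis (log2 fold change 0.43, SE 0.046, adjusted p = 1.90e-11). Neither subunit overlapped between the lines.

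RAD18 had 51.6 to 53.8 CPM in wt and 71.03 to 79.4 CPM in cis (log2 fold change 0.50, SE 0.042, adjusted p = 1.39e-14), while HLTF was lower in cis (log2 fold change -0.20, SE 0.025). POLH was higher in every cis library than in every wt library (log2 fold change 0.34, SE 0.048, adjusted p = 2.30e-08). REV1 was higher (0.16), POLI lower (-0.39) and POLK lower (-0.31). POLQ was called at 0.11, and this call was lost without the first wt library (0.096) or the second cis library (0.085), and with DESeq2.

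Under carboplatin 7 members were higher and 1 lower in cis carbo than in wt carbo, where 81.9% (40.3% as higher and 41.6% as lower) of all genes were called. POLQ was at 23.6, 23.2 and 24.3 CPM in wt carbo and 59.02, 63.5 and 60.2 CPM in cis carbo, a 2.53-fold difference (log2 fold change 1.34, SE 0.051, adjusted p = 3.69e-30). HLTF was at 114, 117 and 114 CPM in wt carbo and 227, 219 and 224 CPM in cis carbo (log2 fold change 0.94, SE 0.029, adjusted p = 1.36e-34), the reverse of its order in untreated cells. REV3L (1.07), RAD18 (0.95), MAD2L2 (0.69), REV1 (0.56) and POLI (0.31) were higher in cis carbo as well. POLH was lower in cis carbo, at 64.7 to 68.8 CPM against 73.6 to 78.9 CPM (log2 fold change -0.19, SE 0.039, adjusted p = 1.29e-05), also the reverse of untreated cells. These comparisons share libraries with the carboplatin comparisons above.

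Without serine and glycine 9 members were called between cis -SG and wt -SG, 5 higher and 4 lower, where 81.1% (40.8% as higher and 40.3% as lower) of all genes were called. POLN was higher in cis -SG, with 2.35, 2.67 and 2.75 CPM against 1.43, 1.75 and 1.42 CPM (log2 fold change 0.79, SE 0.190, adjusted p = 7.41e-04). REV3L (0.66), MAD2L2 (0.32), POLH (0.22) and REV1 (0.17) were higher, and POLK (-0.71), HLTF (-0.64), POLQ (-0.56) and POLI (-0.16) lower. The call on POLI was lost without the first wt -SG library (-0.10) or the second cis -SG library (-0.13). With carboplatin added, 6 members were higher in cis -SG carbo, where 74.2% (37% as higher and 37.2% as lower) of all genes were called: REV3L (1.56), POLN (1.44), HLTF (0.94), POLI (0.89), REV1 (0.87) and POLQ (0.74). REV3L was at 29.1, 20.7 and 32.2 CPM in wt -SG carbo and 71.1, 86.01 and 78.95 CPM in cis -SG carbo, with no overlap.

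**Figure D4:**
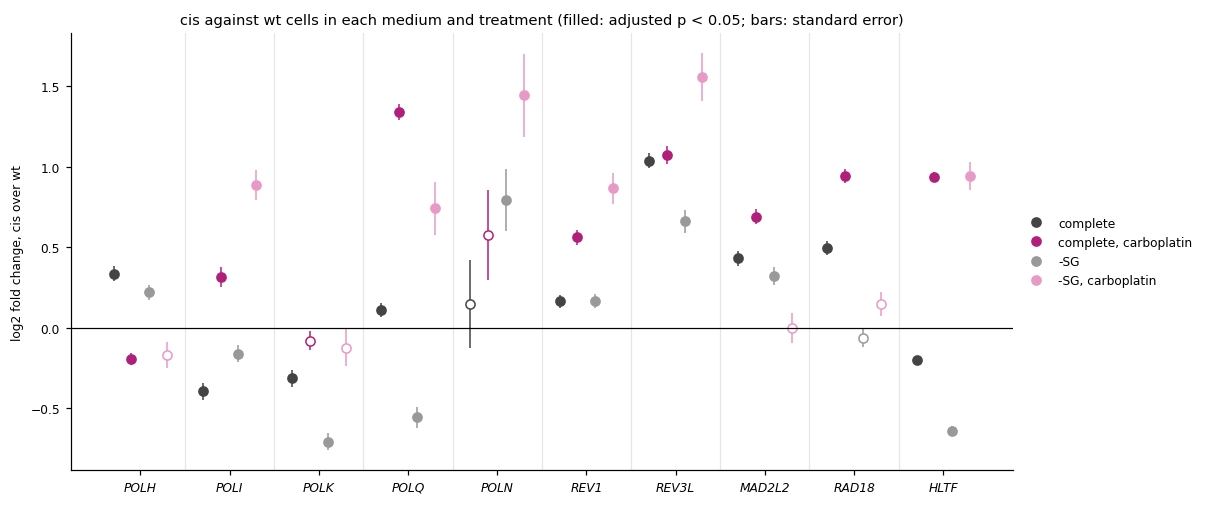
Log2 fold change of cis over wt cells (y axis) for each gene in complete or -SG medium, with or without carboplatin, with bars for the standard error and filled points at an adjusted p under 0.05. REV3L lies above 0 in all 4 settings, and HLTF lies at -0.20 and -0.64 without and at 0.94 and 0.94 with carboplatin.

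Removal of serine and glycine was compared with complete medium in each line. In wt cells it gave 5 higher and 3 lower members, where 49.2% (24.1% as higher and 25.1% as lower) of all genes were called. HLTF was at 279.9, 284 and 283 CPM in wt and 333, 339.5 and 343 CPM in wt -SG (log2 fold change 0.26, SE 0.024, adjusted p = 2.00e-08). POLI was at 37.9 to 39.2 CPM in wt and 46.2 to 52.3 CPM in wt -SG (log2 fold change 0.34). REV3L was higher by 0.26, or by 0.16 without the second wt -SG library, and RAD18 (-0.28), POLQ (-0.26) and MAD2L2 (-0.25) were lower. The call on POLN (0.68) was lost without the first or second wt or the second wt -SG library (0.55 to 0.80 over the left-out libraries). That on REV1 (0.12) was lost without any wt library or the first wt -SG library (0.097 to 0.15).

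In cis cells 9 members were called, 3 higher and 6 lower, where 75% (37.6% as higher and 37.4% as lower) of all genes were called. RAD18 went from 71.03, 75.6 and 79.4 CPM in cis to 40.4, 41.6 and 38.7 CPM in cis -SG (log2 fold change -0.85, SE 0.046, adjusted p = 3.09e-21). POLQ went from 57.6, 62.4 and 59.5 CPM to 32.3, 26.97 and 31.2 CPM (log2 fold change -0.93, SE 0.054, adjusted p = 4.22e-19). For both, every deprived library lay below every library in complete medium. MAD2L2 (-0.37), POLK (-0.34), HLTF (-0.18) and REV3L (-0.12) were also lower. POLI rose from 28.8 to 30.4 CPM to 40.6 to 43.3 CPM (log2 fold change 0.57, SE 0.053, adjusted p = 2.17e-13). POLN rose from 0.890 to 1.23 CPM to 2.35 to 2.75 CPM (log2 fold change 1.32, SE 0.217), and REV1 was called at 0.12. The call on REV1 was lost without the first cis -SG library (0.092) and that on REV3L without the third (-0.081). The cell cycle markers summed to 1832 to 1851 CPM in cis -SG against 3397 to 3474 CPM in cis, and to 2439 to 2572 CPM in wt -SG against 3103 to 3167 CPM in wt, and their part in the lower levels was not tested. The p53 targets summed to 1852 to 1879 CPM in cis -SG against 1251 to 1282 CPM in cis. In wt -SG they summed to 1384 to 1388 CPM against 1252 to 1258 CPM in wt. POLH was not called in either line (log2 fold change -0.0605 in cis and 0.0614 in wt cells).

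The deprivation response differed between cis and wt cells for 6 members by the interaction term, where 54% (27.1% as higher and 26.9% as lower) of all genes were called. POLQ (-0.65, SE 0.075, adjusted p = 3.05e-09) and RAD18 (-0.55, SE 0.070, adjusted p = 2.53e-08) had the most negative differences, cis minus wt, followed by HLTF (-0.43), POLK (-0.38) and REV3L (-0.36). POLI had a positive one (0.24, SE 0.072, adjusted p = 0.00425), which DESeq2 did not call. HLTF and REV3L rose in wt -SG and fell in cis -SG.

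Under carboplatin, deprivation of wt cells gave 0 called members with edgeR, where 0.720% (0.623% as higher and 0.0969% as lower) of all genes were called, 4 members had an unadjusted p under 0.05 and DESeq2 called 0. Library 11 of wt -SG carbo stood apart, with mean chi-squares of 25.6 and 24.6 against the others of its condition, which had 1.20 between them. Without library 11 edgeR called 1 member. The share of all genes called in that fit is not given here, so this count is not read as a result about the members. In carboplatin-treated cis cells 8 members were called, where 70.2% (35.2% as higher and 35% as lower) of all genes were called. RAD18 was at 75.9, 71.4 and 74.7 CPM in cis carbo and at 36.2, 37.7 and 38.5 CPM in cis -SG carbo (log2 fold change -0.95). POLQ (-0.87), MAD2L2 (-0.60), HLTF (-0.28) and POLH (-0.13) were also lower, and POLN (1.18), POLI (0.58) and REV3L (0.23) higher. The call on REV3L, whose groups overlapped, was lost without the first or the third cis carbo library or the second or the third cis -SG carbo library (0.13 to 0.27 over the left-out libraries).

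In cis SSP cells, which grew out under deprivation, 0 members were called between the media with edgeR, where 0.0218% (0.0218% as higher and 0% as lower) of all genes were called, 0 had an unadjusted p under 0.05 and DESeq2 called 0. Without libraries 25 and 32, where 35.9% of all genes were called, 6 members were called, at log2 fold changes without and with these libraries of -0.24 against -0.21 for POLQ, -0.23 against -0.22 for POLH, -0.15 against -0.13 for RAD18, 0.10 against 0.11 for HLTF, 0.15 against 0.14 for REV1 and 0.18 against 0.20 for REV3L. Under carboplatin REV3L (0.14) and RAD18 (-0.14) were called, where 9.76% (4.93% as higher and 4.83% as lower) of all genes were called. Without any 1 of the 6 libraries of that comparison at most 1 of them was called, with values of 0.11 to 0.16 for REV3L and -0.18 to -0.11 for RAD18.

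**Figure D5:**
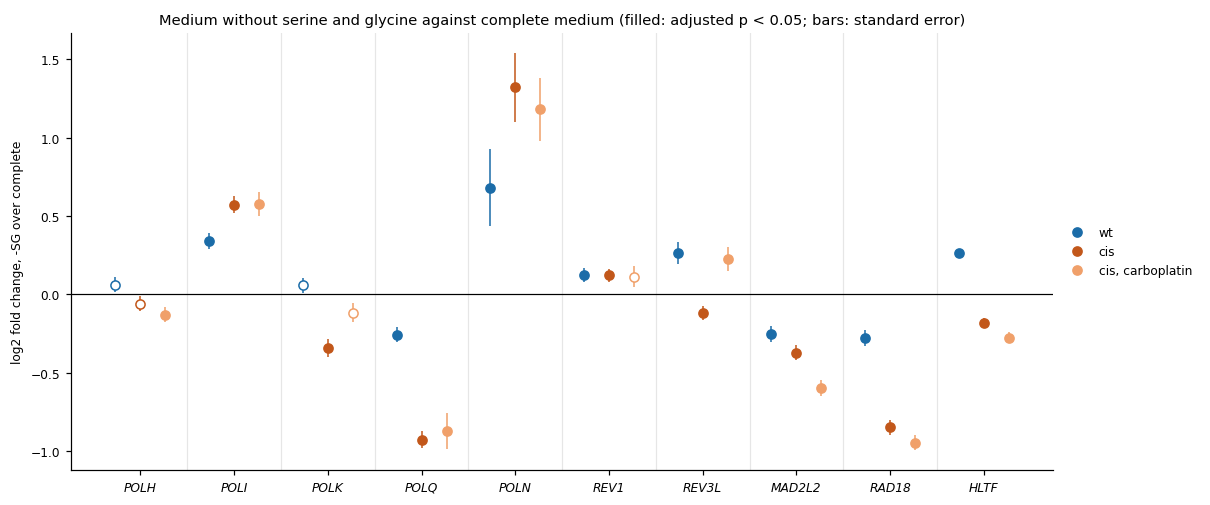
Log2 fold change without serine and glycine over complete medium (y axis) for each gene in wt cells, cis cells and carboplatin-treated cis cells, with bars for the standard error and filled points at an adjusted p under 0.05. RAD18 and POLQ lie lower in cis (-0.85 and -0.93) than in wt cells (-0.28 and -0.26).

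Finally, cis SSP cells were set against the cis cells they came from. The index sequences in the names of the cis SSP libraries repeat those of the wt libraries, while the cis libraries carry others. The labels give no lane or pool, so a difference of that kind cannot be told apart from one between the lines. In complete medium 1 member, RAD18, was called, where 29.1% (15.8% as higher and 13.3% as lower) of all genes were called, with 42.1, 54.3 and 51.8 CPM in cis SSP against 71.03, 75.6 and 79.4 CPM in cis (log2 fold change -0.62, SE 0.139, adjusted p = 0.0187). This call was lost without any 1 of the cis libraries (-0.71 to -0.50 over the left-out libraries). Without library 25, where 65.4% of all genes were called, 6 members were called as lower: RAD18 (-0.50, SE 0.050), POLQ (-0.25 against -0.58 with all libraries), POLH (-0.24 against -0.48), REV3L (-0.20 against -0.58), MAD2L2 (-0.18 against 0.13, the opposite sign) and REV1 (-0.13 against -0.33).

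Under carboplatin, a comparison that uses neither library 25 nor 32, 8 members were lower in cis SSP carbo than in cis carbo, where 69.2% (34.7% as higher and 34.5% as lower) of all genes were called. POLQ was at 43.6, 46.1 and 48.5 CPM in cis SSP carbo and 59.02, 63.5 and 60.2 CPM in cis carbo (log2 fold change -0.38, SE 0.047, adjusted p = 5.24e-08). REV3L (-0.30), RAD18 (-0.29), MAD2L2 (-0.23), REV1 (-0.19), POLI (-0.18), HLTF (-0.16) and POLH (-0.10) were the others. The call on POLH was lost without the first or the third cis carbo or the second or the third cis SSP carbo library (-0.12 to -0.083 over the left-out libraries). DESeq2 called neither POLH nor POLI here.

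Without serine and glycine POLN (-1.20), POLH (-0.64, SE 0.212, adjusted p = 0.0495) and POLI (-0.58) were lower in cis SSP -SG than in cis -SG, where 44.8% (21.6% as higher and 23.2% as lower) of all genes were called. The call on POLH was lost without any 1 of the cis -SG libraries or the third cis SSP -SG library (-0.78 to -0.43 over the left-out libraries). Without library 32, where 75.5% of all genes were called, 8 members were called. POLQ (0.43 against 0.13 with all libraries), POLK (0.32 against 0.079), HLTF (0.30 against 0.14) and RAD18 (0.18 against 0.096) were then higher, and POLN (-1.26 against -1.20), POLI (-0.50 against -0.58), POLH (-0.43 against -0.64) and REV1 (-0.11 against -0.30) lower. With carboplatin and without serine and glycine, 4 members were higher and 4 lower in cis SSP cells, where 73.8% (37.3% as higher and 36.5% as lower) of all genes were called. RAD18 was at 53.5, 54.7 and 53.8 CPM in cis SSP -SG carbo and 36.2, 37.7 and 38.5 CPM in cis -SG carbo (log2 fold change 0.51, SE 0.050, adjusted p = 3.18e-07). POLQ (0.54), MAD2L2 (0.44) and HLTF (0.13, or -4.6e-03 with total counts in place of TMM scaling) were the other higher genes. POLN (-1.30), POLI (-0.73), REV3L (-0.40) and REV1 (-0.24) were lower. The groups overlapped for REV1, whose call was lost without the third cis -SG carbo library or any cis SSP -SG carbo library (-0.31 to -0.19 over the left-out libraries).

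Over the 12 conditions POLH had its highest mean in wt carbo (76.1 CPM) and its lowest in cis SSP -SG (29.5 CPM, or 33.9 CPM without library 32). POLQ was highest in cis carbo (60.9 CPM) and lowest in wt -SG carbo (19.8 CPM), a ratio of 3.08. HLTF spanned a ratio of 3.55, from 338 CPM in wt -SG to 95.3 CPM in wt -SG carbo. RAD18 ranged from 75.3 CPM in cis to 34.5 CPM in wt -SG carbo, and REV1 from 58.6 CPM in cis -SG to 31.7 CPM in wt -SG carbo. The genes most like POLH across the 12 condition means, by Pearson's r of log2(CPM + 1) among 11616 genes with a mean of at least 50 counts, were JCAD (0.956, and 0.946 without libraries 25 and 32), ZNF468 (0.947 and 0.934) and ASTN2 (0.941 and 0.942). Those most like POLQ were SNTB2 (0.976 and 0.969), the helicase gene BLM (0.975 and 0.984) and SGO1 (0.974 and 0.982), which protects centromeric cohesion. These means share the libraries and their depth, and r is given as a description.

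Other genes that act on the clamp and at the fork were read as lists. Of 15 partners of PCNA ubiquitination and damage tolerance, 4 rose and 7 fell in wt carbo against wt, where 77.8% (38.9% as higher and 39% as lower) of all genes were called, with a median log2 fold change of -0.026. PCNA itself rose from a mean of 230.0 to 301 CPM (log2 fold change 0.39, SE 0.022, adjusted p = 1.06e-59), and WDR48, a cofactor of the deubiquitinase USP1, rose by 0.39. ATAD5, which unloads PCNA (log2 fold change -1.50), PRIMPOL, which reprimes stalled forks (-1.31), and the fork remodeller ZRANB3 (-1.11) fell. Of 7 genes of polymerase delta and RPA, 6 fell and POLD4 rose (1.17), with a median of -0.57, and RPA3 (-1.37), POLD3 (-1.32) and POLD1 (-1.18) fell most among those named. Of 7 partners of MAD2L2, 3 fell, SHLD2 of shieldin (-0.84), TRIP13, which remodels MAD2L2 (-0.59), and RIF1 (-0.30), with a list median of -0.34. The median of all genes was -7.36e-04.

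In cis carbo against cis, 2 of the 15 partners rose and 1 fell, and 2 of the 7 polymerase delta and RPA genes fell, where 20.1% (9.27% as higher and 10.8% as lower) of all genes were called. PCNA rose by 0.19 on the log2 scale, and ZRANB3 had a log2 fold change of -0.39. Between cis and wt cells without drug, PCNA was higher in cis at 396 against 230.0 CPM (log2 fold change 0.76, SE 0.026, adjusted p = 3.97e-29), as was SPRTN, a protease for crosslinked proteins (0.60). SMARCAL1 (-0.84), ZRANB3 (-0.72) and the MAD2L2 partner TP53BP1 (-0.68) were lower in cis. Of the 15 PCNA partners, 5 were higher and 7 lower in cis. Of the 7 polymerase delta and RPA genes, 2 were higher and 3 lower. The 7 partners of MAD2L2 had 3 higher and 2 lower genes. Of all genes, 78.5% (39.4% as higher and 39.1% as lower) were called in this comparison.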

How the data were processed

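RNA was sequenced as single reads from 36 libraries of A2780 cells. The authors aligned reads to GRCh37.p13 with STAR and counted them per gene with HTSeq and GENCODE annotation, and deposited raw counts in 1 table. The treatment of reads that map to several places was not given in the sources used here. Of all counted reads, 4.21% to 17.9% were assigned to no gene (at most 9.31% without libraries 23 and 24 of cis -SG carbo), and these entries stayed out of library sizes. Total counts were 13074937 to 20441582 per library, so POLN, with 10 to 57 counts, had the least precise values.

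Groups came from the labels. Each comparison was fitted on its own libraries with edgeR 4.0.16 in R 4.3.3 (TMM, filterByExpr, robust quasi-likelihood F test) over all genes that passed the filter, with Benjamini-Hochberg adjustment and a threshold of 0.05. Differences between responses were interaction terms. The standard error is the log2 fold change divided by the square root of F. Lengths and positions came from a GENCODE release lifted to GRCh37, later than the one the authors counted with. Levels per kb can therefore include exon bases that were not counted. Promoter windows came from RefSeq. The scripts were tested on simulated data. Alternatives were DESeq2 1.42.0, its size factors, total counts, other filters, 1 fit over all libraries and left-out libraries. Levels and likeness without libraries 25 and 32 were added after seeing the data. All 10 members were tested in every comparison, and members that were not called are not named in each. Of the other lists, at most 3 called genes in each direction were named, by size of change with a mean of at least 50 counts. The 10 members and the lists were chosen with earlier results of these data known.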

Additional observations from a re-analysis of the deposited data

Results flagged for a closer look

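The results below drew attention because the response to carboplatin or to deprivation differed between lines or media by the interaction term of edgeR's quasi-likelihood test. Each value is a difference of log2 fold changes.

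For carboplatin in complete medium, cis minus wt, POLH was at -0.52, POLI at 0.72, POLK at 0.24, POLQ at 1.24, REV1 at 0.41, MAD2L2 at 0.27, RAD18 at 0.46 and HLTF at 1.15. Without serine and glycine, POLH was at -0.39, POLI at 1.04, POLK at 0.58, POLQ at 1.29, REV1 at 0.69, REV3L at 0.89, MAD2L2 at -0.32 and HLTF at 1.58. The call on MAD2L2 there was lost without any 1 of 6 libraries. POLH and HLTF kept opposite signs in both media.

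For deprivation, cis minus wt, POLI was at 0.24, POLK at -0.38, POLQ at -0.65, REV3L at -0.36, RAD18 at -0.55 and HLTF at -0.43. DESeq2 did not call the difference for POLI. For carboplatin in wt cells, -SG minus complete medium, POLI was at -0.34, REV1 at -0.31, MAD2L2 at 0.35 and HLTF at -0.54. In cis cells the same difference was 0.25 for POLK, a call lost without any 1 of the 12 libraries. It was 0.37 for REV3L, a call lost without any 1 of 7 libraries.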

How the results depend on the processing

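Of 128 called values of the 10 genes, 70 stayed past the threshold under each of the 12 to 18 settings and left-out libraries run for them, 57 were lost under at least 1 other setting and 20 without at least 1 library. The 57 are not each named in the text. The counts of called members below are given without the share of all genes called under each setting. Only the fits without libraries 25 and 32 have their shares given above. The counts therefore do not tell a change of the members from a change of all genes. Only counts that changed more than 1.5-fold, or to or from 0, are listed, and smaller changes are left out. For example, DESeq2 called 6 in place of 8 in wt -SG against wt and in cis SSP carbo against cis carbo. It called 5 in place of 4 for carboplatin between media in wt. The fit over the 36 libraries called 6 in place of 8 in wt carbo against wt, and 6 in place of 9 in cis -SG against wt -SG. With 1 fit over the 36 libraries, which brings libraries 25 and 32 into every estimate of spread, the number of called members was 0 for cis carbo against cis, 2 for cis SSP carbo against cis SSP, 1 for cis -SG carbo against cis -SG, 2 for cis SSP -SG carbo against cis SSP -SG, 3 for wt -SG against wt, 5 for cis -SG against cis, 0 for cis SSP -SG carbo against cis SSP carbo, 5 for cis against wt, 4 for cis SSP against cis, 1 for cis SSP carbo against cis carbo and 5 for cis SSP -SG carbo against cis -SG carbo. For the differences between responses it was 5 (carboplatin, cis minus wt), 4 (the same without serine and glycine), 2 (deprivation, cis minus wt), 1 (carboplatin between media in wt) and 0 (in cis). Without libraries 25 and 32 it was 4 for cis SSP carbo, 6 for cis SSP -SG carbo, 6 for cis SSP -SG against cis SSP, 6 for cis SSP against cis, 8 for cis SSP -SG against cis -SG and 3 for the carboplatin response of cis SSP minus cis. DESeq2's Wald test called 1 in cis SSP carbo, 1 in cis SSP -SG carbo, 0 in cis SSP -SG carbo against cis SSP carbo and 1 for carboplatin between media in cis. With no filter on low counts the numbers were 1 in cis SSP -SG carbo, 2 in wt -SG carbo against wt carbo, 1 in cis SSP -SG carbo against cis SSP carbo and 1 for carboplatin between media in cis, and total counts without TMM gave 1 in each of the last 2 comparisons.

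Leaving out 1 library in turn gave 0 to 4 called members in cis SSP carbo, 3 to 6 in cis -SG carbo, 0 to 6 in cis SSP -SG carbo, 0 to 1 in wt -SG carbo against wt carbo, 0 to 1 in cis SSP -SG carbo against cis SSP carbo, 0 to 6 in cis SSP against cis, 2 to 8 in cis SSP -SG against cis -SG, 0 to 3 for carboplatin in cis SSP minus cis and 0 to 3 for carboplatin between media in cis. Total counts without TMM turned HLTF in cis SSP -SG carbo against cis -SG carbo to -0.0046, and shifted the median log2 fold change of all genes by -0.14 there, by 0.13 in cis -SG carbo against wt -SG carbo and by 0.10 in the carboplatin response without serine and glycine. The share of higher calls among all called genes went from 72.4% to 60.3% in cis SSP carbo, from 48.4% to 61.1% in cis -SG carbo, from 50.5% to 36.6% in cis SSP -SG carbo against cis SSP carbo, from 50.5% to 40% in cis SSP -SG carbo against cis -SG carbo, from 83.6% to 73.3% for carboplatin in cis SSP minus cis and from 48.9% to 62.5% for carboplatin between media in cis. With the longest transcript as length, the median level was 40.8 CPM per kb for HLTF, 13.4 for MAD2L2, 10.5 for REV1, 8.06 for RAD18, 4.92 for POLI, 4.91 for POLQ, 4.87 for REV3L, 1.85 for POLK and 0.304 for POLN. Without libraries 25 and 32 it was 7.16 for RAD18, 6.73 for REV1, 5.00 for POLQ and 4.76 for REV3L, an alternative chosen after seeing the data. Among values not called with all libraries, leaving out 1 library in turn gave both signs for REV1 (-0.19 to 0.10) and MAD2L2 (-0.28 to 0.17) in cis SSP -SG carbo, for POLQ (-0.54 to 0.085), REV1 (-0.043 to 0.34), REV3L (-0.18 to 0.55) and HLTF (-0.059 to 0.28) in cis SSP -SG against cis SSP, for MAD2L2 in cis SSP against cis (-0.18 to 0.28), for POLK (-0.048 to 0.32) and POLQ (-0.064 to 0.43) in cis SSP -SG against cis -SG, and for HLTF in the carboplatin response of cis SSP minus cis (-0.17 to 0.10). Without both libraries MAD2L2 was at 0.17 in cis SSP -SG carbo and -0.18 in cis SSP against cis. The HLTF difference was 0.0089 with DESeq2, 2.0e-04 with its size factors and 0.0045 with no filter. The cause of these shifts was not tested. No paired analysis was possible because the labels number the libraries 1 to 36 and give no number that groups share.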

Other observations

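In cis cells without serine and glycine, 7 of 7 polymerase delta and RPA genes were lower than in complete medium, where 75% (37.6% as higher and 37.4% as lower) of all genes were called, with a median log2 fold change of -0.47 against 0.012 over all genes. POLD1, the catalytic subunit of polymerase delta (-0.56), and RPA1, which coats single-stranded DNA (-0.54), were among them. Of the 15 PCNA partners, 6 were higher and 7 lower, with PCNA at 245 CPM against 396 CPM (-0.63).

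Between cis SSP -SG carbo and cis -SG carbo, cis SSP cells had the higher level for 7 of 7 polymerase delta and RPA genes, where 73.8% (37.3% as higher and 36.5% as lower) of all genes were called, at a median of 0.63 against -8.15e-04 over all genes. POLD1 (1.10) and RPA1 (0.87) were again among them, and 8 of the 15 PCNA partners were higher and 5 lower. Cell cycle markers summed to 3353 to 3554 CPM in cis SSP -SG carbo and 1494 to 1539 CPM in cis -SG carbo, and their part in these differences was not tested.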
